A study of Mus musculus with 6 samples.

Results

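The genes described here are the axon guidance families that also act in blood vessels: semaphorins and their plexin receptors, Slit ligands and Robo receptors, Unc5 netrin receptors, and ephrins with their Eph receptors. They were taken by gene symbol among protein-coding genes, which gave 62 of the 55487 genes measured. RNA was measured in kidney endothelial cells of 6 mice, 3 per group, and each library came from 1 labelled mouse. The control group was wild-type littermates. Mice of the I-PpoI group carried a VE-cadherin-driven Cre recombinase and a Cre-dependent I-PpoI transgene, I-PpoI being an endonuclease that cuts DNA on both strands. Cre under this promoter acts in endothelium, so the cut is aimed at those cells. All 6 mice were moved to a diet with 60% of its energy from fat at 8 weeks of age and stayed on it for 4 weeks, so no chow-fed group enters the comparison. The labels name a differently numbered Rosa site for each I-PpoI mouse, and the transgene was not analysed here. Cells were sorted from digested whole kidney on CD31 (Pecam1), which takes endothelium of every kidney vessel bed together.

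These families carry short-range signals between cells. Class 3 semaphorins are secreted and act through plexins, often with a neuropilin as co-receptor, while other semaphorins stay on the cell membrane. Slits bind Robo receptors, and netrins bind Unc5 receptors, which in growing vessels hold back sprouting. Ephrins sit on one cell and Eph receptors on its neighbour, and ephrin-B2 (Efnb2) on arteries facing EphB4 (Ephb4) on veins is the textbook marker pair of vessel identity. Robo4 is a Robo receptor found mainly in endothelium, and plexin-D1 (Plxnd1) is the main endothelial semaphorin receptor.

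The promoters of 4 of these vessel genes are shown so that their start regions can be compared. As deposited, all 4 transcripts were lower in every I-PpoI library than in any control (values below). The same held for 20 of the 40 guidance genes tested and for 45.1% of all tested genes. Among tested genes at or above 10 FPKM in the controls it held for 67.3%, so it does not single these 4 out. Each window runs from 250 bases before to 50 bases after the start of a RefSeq gene model on GRCm38.p6, printed 5′ to 3′ on the gene's own strand. Capitals mark the GC box GGGCGG, or its reverse complement CCGCCC, in the first 3, and the ETS-type sequence CAGGAAG in the last. The windows are chr14:31217623-31217922 on the plus strand for Sema3g, chr8:8661193-8661492 on the minus strand for Efnb2, chr5:137349859-137350158 on the plus strand for Ephb4 and chr9:37401722-37402021 on the plus strand for Robo4.
Sema3g: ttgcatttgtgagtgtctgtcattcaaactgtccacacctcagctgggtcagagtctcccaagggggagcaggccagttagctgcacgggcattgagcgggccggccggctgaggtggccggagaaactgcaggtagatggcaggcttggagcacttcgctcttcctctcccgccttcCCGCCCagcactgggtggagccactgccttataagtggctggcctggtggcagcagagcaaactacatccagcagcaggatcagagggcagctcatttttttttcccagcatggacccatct
Efnb2: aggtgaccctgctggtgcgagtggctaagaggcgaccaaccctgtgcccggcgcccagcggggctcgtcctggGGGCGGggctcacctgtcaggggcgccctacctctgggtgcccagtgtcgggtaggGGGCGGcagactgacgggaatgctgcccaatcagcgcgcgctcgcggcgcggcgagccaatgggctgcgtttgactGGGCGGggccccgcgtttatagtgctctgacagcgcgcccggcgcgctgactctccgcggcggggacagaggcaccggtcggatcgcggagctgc
Ephb4: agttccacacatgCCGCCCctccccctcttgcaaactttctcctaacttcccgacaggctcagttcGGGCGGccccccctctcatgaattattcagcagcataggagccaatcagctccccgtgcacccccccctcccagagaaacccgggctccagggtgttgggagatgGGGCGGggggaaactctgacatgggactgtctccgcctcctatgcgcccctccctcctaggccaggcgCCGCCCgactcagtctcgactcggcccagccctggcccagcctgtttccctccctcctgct
Robo4: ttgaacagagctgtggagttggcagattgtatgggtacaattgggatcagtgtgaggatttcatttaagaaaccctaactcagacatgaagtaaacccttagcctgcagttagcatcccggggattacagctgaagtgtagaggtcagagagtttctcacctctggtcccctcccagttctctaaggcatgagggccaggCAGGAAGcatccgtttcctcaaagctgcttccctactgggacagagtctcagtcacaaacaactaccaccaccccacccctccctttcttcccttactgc
The GC box, searched on both strands, was found once in the Sema3g window, 3 times in that of Efnb2 and 4 times in that of Ephb4. The Robo4 window held 0 GC boxes and 1 CAGGAAG, 50 bases before the start. Over all 27025 genes with such a window, 38.2% held a GC box and 14.8% held CAGGAAG or its reverse complement CTTCCTG. That set is larger than the 21936 protein-coding genes measured, whereas the guidance genes are all protein-coding, so the shares are not directly comparable. A window was given for 54 of the 62 guidance genes. The GC box was in 12 of the 14 such genes at or above 10 FPKM in the controls and in 13 of the 19 under 1 FPKM, and CAGGAAG was in 2 of the 14 and 2 of the 19. The GC box was thus frequent in high and in low members alike, and a match is a description of the window only.

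The libraries were uneven, which bears on every group comparison. FPKM is fragments scaled to exon length and library total, so levels of different genes can be compared. Recovered fragments numbered 14081222 to 16954480 in the controls and 1590957 (mouse 1), 834149 (mouse 2) and 13324303 (mouse 3) in the I-PpoI group. In I-PpoI mice 1 and 2, 14.7% (95% exact Clopper-Pearson interval 14.7 to 14.8%) and 10.02% (9.95 to 10.1%) of fragments lay on antisense gene models, against 0.119 to 0.225% in the other 4 libraries. Intervals here cover counting error only. Mitochondrial genes took 8.83 to 18.3% of control fragments, while the I-PpoI libraries had 6.42%, 38.2% and 48.2%. Pan-endothelial markers were abundant in all 6 libraries, their 16 genes summing to 3206, 3329.6 and 3019.9 FPKM in the controls against 2166, 728 and 1452 FPKM in the I-PpoI group. By Ddx3y and Xist, 3 control and 1 I-PpoI libraries were male and 2 I-PpoI libraries female, so sex partly goes with group and its part was not tested. The guidance genes together made up 0.703%, 0.484% and 0.564% of the control libraries (mice 1 to 3) but 0.344%, 0.165% and 0.282% of the I-PpoI libraries (mice 1 to 3). The interval for I-PpoI mouse 2 ran from 0.157 to 0.174%. A tested member rested on a median of 461 to 1013.5 fragments in the controls, but of 67, 15 and 429.5 in the I-PpoI libraries. In I-PpoI mouse 2, 12 of the 40 tested members had fewer than 10 fragments.

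In the controls 16 of the 62 genes stood at or above 10 FPKM, which is 25.8% against 20.7% of all 21936 protein-coding genes. Another 24 lay from 1 to 10 FPKM and 22 under 1 FPKM. The highest in each family was Sema3g, Sema7a, Plxnd1, Robo4, Unc5b, Efna1, Efnb2, Epha2 or Ephb4, and Sema3g ranked 63rd of all protein-coding genes. The Eph receptors Epha5, Epha8 and Epha10 were listed at 0 in all 6 libraries. A count of 0 still allows an expected count of up to 3 fragments in each (upper 95% limit). Per-library values below are given in the order of mouse 1, 2 and 3 of each group. As deposited, 45.1% of all tested genes were lower in every I-PpoI library than in any control. Among those at or above 10 FPKM in the controls the share was 67.3%, so this trait is common where single genes below show it. The libraries are bulk RNA, so fewer cells of a type and less RNA per cell cannot be told apart.

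**Figure D1:**
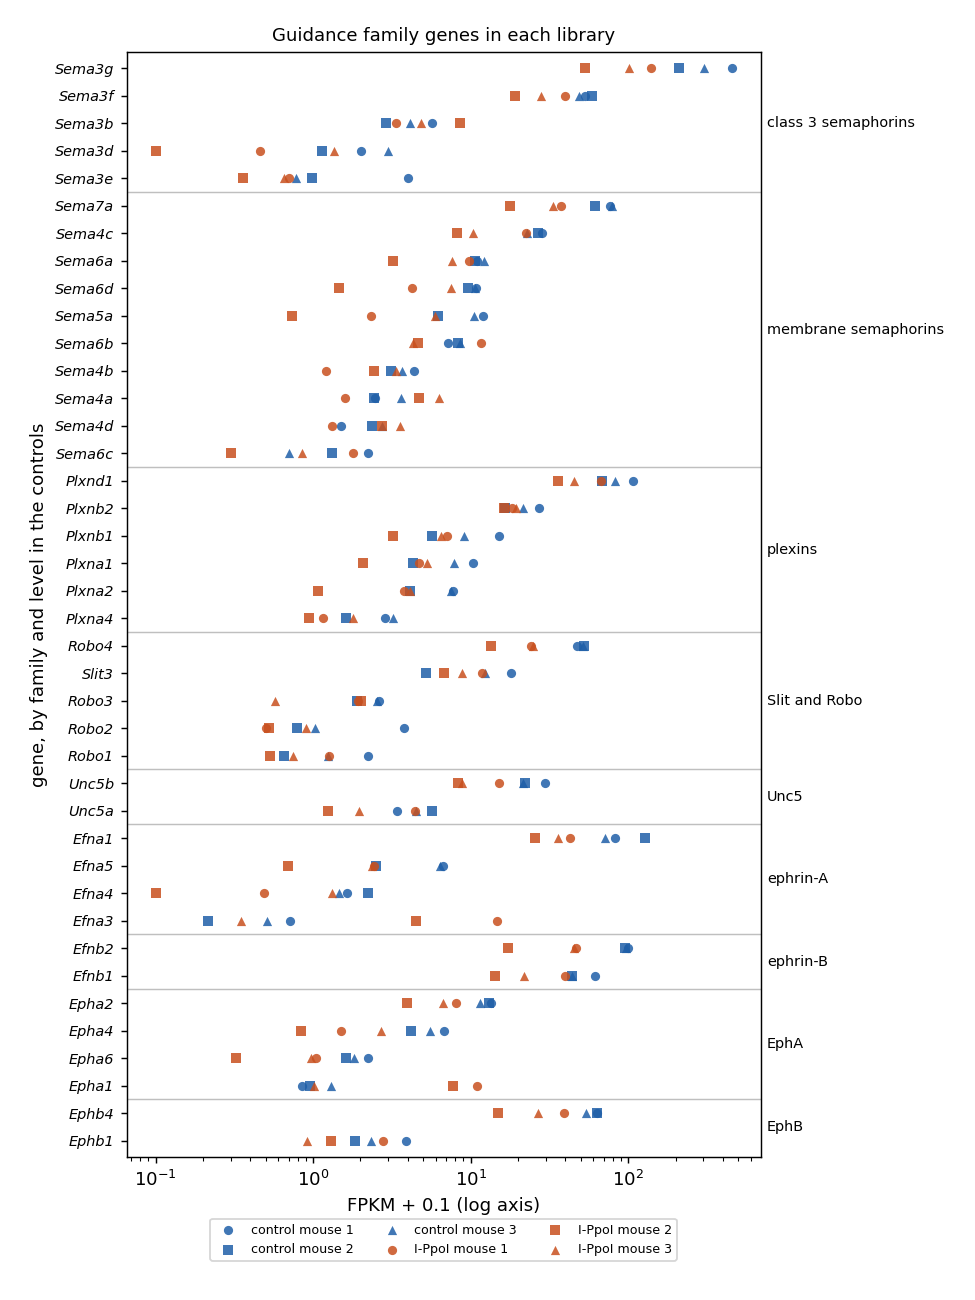
FPKM + 0.1 on a log axis for the 40 guidance genes averaging 1 FPKM or more, by family and in the order of the control mean, 1 point per library (blue control, orange I-PpoI, with circle, square and triangle for mice 1, 2 and 3). Sema3g stands highest at 211 to 455 FPKM in the controls, and the square of I-PpoI mouse 2, the shallowest library, is the lowest point of most rows.

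Among the secreted class 3 semaphorins, Sema3g, a ligand known from arterial endothelium and podocytes, was at 455, 211 and 305 FPKM in the controls against 141, 53.1 and 102 FPKM in the I-PpoI group. All 3 I-PpoI values lay below the lowest control. Sema3f, a repellent cue that binds neuropilin-2, was at 53.4, 58.6 and 48.5 FPKM in the controls against 39.6, 19.1 and 28.1 FPKM in the I-PpoI group, also without overlap. Sema3b, a secreted ligand whose values overlapped, was at 5.58, 2.797 and 4.002 FPKM in the controls against 3.26, 8.49 and 4.76 FPKM in the I-PpoI group. Sema3d and Sema3e, the latter the ligand that binds Plxnd1 without a neuropilin, ranged from 0 to 2.89 and from 0.257 to 3.89 FPKM. Sema3c stayed at or under 1.68 FPKM and Sema3a at or under 0.0625 FPKM in all 6 libraries.

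Of the membrane semaphorins, Sema7a, the lipid-anchored member of the family, was highest at 76.3, 61.3 and 79.1 FPKM in the controls against 37.4, 17.7 and 33.2 FPKM in the I-PpoI group. Its groups did not overlap. Sema4c, a ligand of plexin-B2, was at 28.4, 26.5 and 22.7 FPKM in the controls against 22.4, 8.06 and 10.2 FPKM in the I-PpoI group, and an exon of D430040D24Rik lies on the strand opposite to it. Sema6a and Sema6d, transmembrane ligands of class A plexins, were at 10.9, 10.6 and 12.01 FPKM in the controls against 9.73, 3.13 and 7.56 FPKM in the I-PpoI group for Sema6a and at 10.8, 9.54 and 10.6 FPKM in the controls against 4.13, 1.36 and 7.38 FPKM in the I-PpoI group for Sema6d. In these, too, no I-PpoI value reached the lowest control as deposited. Sema5a, which carries thrombospondin repeats, was at 11.9, 6.14 and 10.3 FPKM in the controls against 2.24, 0.639 and 5.82 FPKM in the I-PpoI group. Sema6b was at 7.07, 8.24 and 8.49 FPKM in the controls against 11.5, 4.51 and 4.18 FPKM in the I-PpoI group, with I-PpoI mouse 1 above and the other I-PpoI mice below all controls. Sema4a and Sema4d, which act on immune cells as well as vessels, took another order. Sema4a was at 2.37, 2.34 and 3.503 FPKM in the controls against 1.499, 4.64 and 6.19 FPKM in the I-PpoI group, and Sema4d at 1.39, 2.28 and 2.62 FPKM in the controls against 1.22, 2.64 and 3.47 FPKM in the I-PpoI group, both with I-PpoI mouse 3 the highest library and I-PpoI mouse 1 the lowest. Sema5b, Sema4g and Sema4f stayed under 1 FPKM in all 6 libraries.

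Plxnd1 was the highest plexin at 107, 68.6 and 82.6 FPKM in the controls against 66.8, 35.8 and 45.1 FPKM in the I-PpoI group, and I-PpoI mouse 1 lay just under the lowest control, mouse 2. Plxnb2, the receptor of Sema4c, was at 26.99, 16.3 and 21.6 FPKM in the controls against 18.2, 16.2 and 19.4 FPKM in the I-PpoI group. Its groups overlapped, and I-PpoI mice 1 and 3 lay inside the control range. Plxnb1, the Sema4d receptor, was at 15.1, 5.59 and 8.93 FPKM in the controls against 7.02, 3.11 and 6.42 FPKM in the I-PpoI group, with an exon of Gm7628 on the opposite strand. The class A plexins Plxna1, Plxna2 and Plxna4, receptors of classes 3 and 6, had control means of 7.37, 6.34 and 2.46 FPKM and I-PpoI means of 3.93, 2.88 and 1.202 FPKM. Each of these 3 had overlapping groups. Plxna3, Plxnc1 and Plxnb3 had control means under 1 FPKM.

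Robo4 was at 47.5, 52.8 and 51.3 FPKM in the controls against 23.99, 13.3 and 24.9 FPKM in the I-PpoI group, a control range within which the 3 mice barely differed and below which all I-PpoI libraries lay. Robo4 was also 1 of the 16 pan-endothelial markers summed above. Slit3, the main Slit of these libraries, was at 17.8, 5.12 and 12.3 FPKM in the controls against 11.7, 6.69 and 8.71 FPKM in the I-PpoI group, and its groups overlapped. Slit2 and Slit1 stayed at or under 0.425 and 0.0507 FPKM, so the detected ligand of the family was almost wholly Slit3. Robo1, the broadly expressed Slit receptor, was at 2.13, 0.551 and 1.14 FPKM in the controls against 1.17, 0.434 and 0.645 FPKM in the I-PpoI group. Among netrin receptors, Unc5b, the endothelial member, was at 29.4, 22.2 and 21.4 FPKM in the controls against 15.04, 8.201 and 8.78 FPKM in the I-PpoI group, without overlap. Unc5a was at 3.33, 5.63 and 4.43 FPKM in the controls against 4.34, 1.15 and 1.85 FPKM in the I-PpoI group, with an exon of Hk3 opposite. Unc5c and Unc5d had control means under 1 FPKM.

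The ephrin ligands were led by a pair. Efna1, a membrane-anchored ligand of EphA receptors induced in activated endothelium, was at 83.03, 128 and 70.8 FPKM in the controls against 42.9, 25.4 and 35.6 FPKM in the I-PpoI group. Efnb2 was at 100.01, 95.4 and 97.4 FPKM in the controls against 46.3, 17.1 and 45.2 FPKM in the I-PpoI group, and the 3 controls lay close together. Efnb1, the related transmembrane ligand, was at 61.98, 44.3 and 43.9 FPKM in the controls against 39.7, 14.2 and 21.7 FPKM in the I-PpoI group. None of these 3 overlapped between groups, with I-PpoI lower, as for 67.3% of all tested genes at or above 10 FPKM in the controls. Efna5 was at 6.55, 2.397 and 6.29 FPKM in the controls against 2.32, 0.592 and 2.27 FPKM in the I-PpoI group and Efna4 at 1.55, 2.13 and 1.37 FPKM in the controls against 0.3899, 0 and 1.22 FPKM in the I-PpoI group, the latter with an exon of 4731419I09Rik opposite. Efna2 and Efnb3 had control means under 1 FPKM.

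Of the receptors, Ephb4 was far the most abundant at 63.02, 63.4 and 53.7 FPKM in the controls against 39.2, 14.9 and 26.6 FPKM in the I-PpoI group, with an exon of Zan on the opposite strand. Epha2, the EphA receptor that Efna1 binds in endothelium, was at 13.4, 12.95 and 11.4 FPKM in the controls against 8.004, 3.83 and 6.63 FPKM in the I-PpoI group. Epha4, which binds both ephrin classes, was at 6.64, 4.08 and 5.43 FPKM in the controls against 1.39, 0.741 and 2.5995 FPKM in the I-PpoI group. All 3 receptors lay lower in every I-PpoI library than in any control, as did 45.1% of all tested genes. Epha6 was at 2.13, 1.52 and 1.72 FPKM in the controls against 0.943, 0.226 and 0.865 FPKM in the I-PpoI group, with an exon of Gm9017 opposite. Ephb1 was at 3.79, 1.75 and 2.23 FPKM in the controls against 2.67, 1.19 and 0.814 FPKM in the I-PpoI group, with overlap and an exon of Gm26846 opposite. Ephb6, a receptor without kinase activity, was at 1.41, 1.09 and 1.56 FPKM in the controls against 0.661, 0.316 and 0.617 FPKM in the I-PpoI group and missed the filter on low values. Ephb2, Ephb3 and Epha7 had control means under 1 FPKM.

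The group comparison asked whether the guidance genes differed between I-PpoI and control cells. As deposited, limma on log2(FPKM + 1) called 0 of 14962 genes at an adjusted p under 0.05 (0% in either direction) and 0 of the 40 members tested, whose smallest adjusted p was 0.132. At an unadjusted p under 0.05, 12 members were lower and 0 higher, against 32.2% and 4.23% of all genes. Groups did not overlap, with I-PpoI lower, for 20 of the 40 members, against 45.1% of all tested genes, and with I-PpoI higher for 0, against 2.24%. The members' share thus lay near the background. Limma-voom on the recovered fragments also called 0 genes, and at an unadjusted p under 0.05 it had Sema4a and Sema4d higher (2.49% of genes) and Sema3g lower (1.04%). In the limma fit as deposited, the median log2 fold change of the 40 members was -0.77 beside -0.65 over all tested genes, with 35 below 0 and 5 above. The 16 members at or above 10 FPKM in the controls had a median of -1.11, and 14 of them did not overlap and were lower, beside a median of -1.02 and 67.3% over the 4750 tested genes at that level. The 24 members under 10 FPKM had a median of -0.67, and 6 did not overlap, beside -0.41 and 34.7% over all tested genes there. In I-PpoI mouse 3, the I-PpoI library without the depth and strand shift, 24 of the 40 members lay below all controls and 2 (Sema4a and Sema4d) above, against 70.7% and 6.17% of all genes. Mitochondrial genes took 48.2% of that library's fragments, against 8.83 to 18.3% in the controls. FPKM is scaled to a total that includes these fragments, and their part in the lower values was not tested. A fit without I-PpoI mice 1 and 2 sets 1 library against 3 controls, so its spread comes from the controls alone and I-PpoI mouse 3 is assumed to vary like them. It called 0 of 41 members (0.131% of genes higher and 0.0154% lower), with a median of -0.57 beside -0.60 over all genes.

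Of the 40, Epha1 and Efna3 passed the filter with a control mean under 1 FPKM, and 7 others (Efna4, Epha6, Robo1, Robo2, Sema3d, Sema3e and Sema6c) with an I-PpoI mean under 1 FPKM. Epha3 and Ephb6 were at or above 1 FPKM in the controls and missed it. The other 20 untested genes were under 1 FPKM in the mean of both the controls and all 6 libraries.

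The members of smallest p were all lower in I-PpoI. Sema3g averaged 323 ± 123 FPKM in the controls and 98.4 ± 43.8 FPKM in the I-PpoI mice (SD, n = 3 each), a log2 fold change of -1.74 (SE 0.49, limma adjusted p = 0.132). For Efna1 it was -1.40 (SE 0.38, limma adjusted p = 0.132), for Efnb2 -1.53 (SE 0.45, limma adjusted p = 0.132) and for Sema7a -1.32 (SE 0.38, limma adjusted p = 0.132). Robo4 had -1.29 (SE 0.35, limma adjusted p = 0.132) and Epha4 -1.35 (SE 0.39, limma adjusted p = 0.132). Of the other vessel genes, Ephb4 had -1.23 (SE 0.41, limma adjusted p = 0.132), Unc5b -1.15 (SE 0.35, limma adjusted p = 0.132) and Plxnd1 -0.82 (SE 0.37, limma adjusted p = 0.138). These sizes followed the scaling. With median-of-ratios scaling, which brought the median of all genes to 0.02, the log2 fold changes were -0.90 for Sema3g, -0.70 for Efnb2, -0.56 for Efna1, -0.49 for Sema7a, -0.47 for Robo4, -0.40 for Ephb4 and 0.02 for Plxnd1. The members' median was then -0.17, with 25 below 0. Limma called 0, and at an unadjusted p under 0.05 only Epha1 was higher and 0 members lower, against 5.44% and 2.87% of genes. Epha1 had passed the filter only through I-PpoI mice 1 and 2. Efna1, Efnb2, Epha6, Robo4 and Sema7a still did not overlap and were lower, 5 of 40 against 9.76% of genes, and Epha1 and Plxnb2 were higher without overlap, 2 of 40 against 7.65%.

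When libraries were instead set level on 8 pan-endothelial markers that are not members, Sema3g stood at -0.24, Efnb2 at -0.06, Epha4 at -0.30 and Sema5a at -0.52. On that scale Robo4 was at 0.17, Ephb4 at 0.24, Sema7a at 0.15, Unc5b at 0.27, Efna1 at 0.09 and Plxnd1 at 0.67. Relative to endothelial markers, the estimates for these named genes lay within 1 log2 unit of 0, and the direction of 6 of these turned. Their SEs ran from 0.28 (Efnb2) to 0.46 (Unc5b), so the estimates are not bounds. Plxnb2 at 1.21 (SE 0.46) and Slit3 at 1.13 (SE 0.52) lay above 1, as did Sema3b, Sema4a, Sema4d, Epha1 and Efna3. Sema5a was the lowest member on this scale. The median was 0.36 over members and 0.56 over all genes. Limma called 0 members, and at an unadjusted p under 0.05 Epha1 and Plxnb2 were higher and 0 lower, against 6.94% and 0.588% of genes. Here, too, Epha1 was in the test only through I-PpoI mice 1 and 2. No member was lower without overlap (2.07% of genes were), and Epha1, Plxnb2, Sema3b, Sema4d and Sema6a were higher, 5 of 40 against 15.3%. The pan-endothelial marker list itself had a median log2 fold change of -1.49 as deposited, below the -0.77 of all 40 members. These markers all stood above 10 FPKM in the controls, and the 16 members at or above that level had a median of -1.11.

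**Figure D2:**
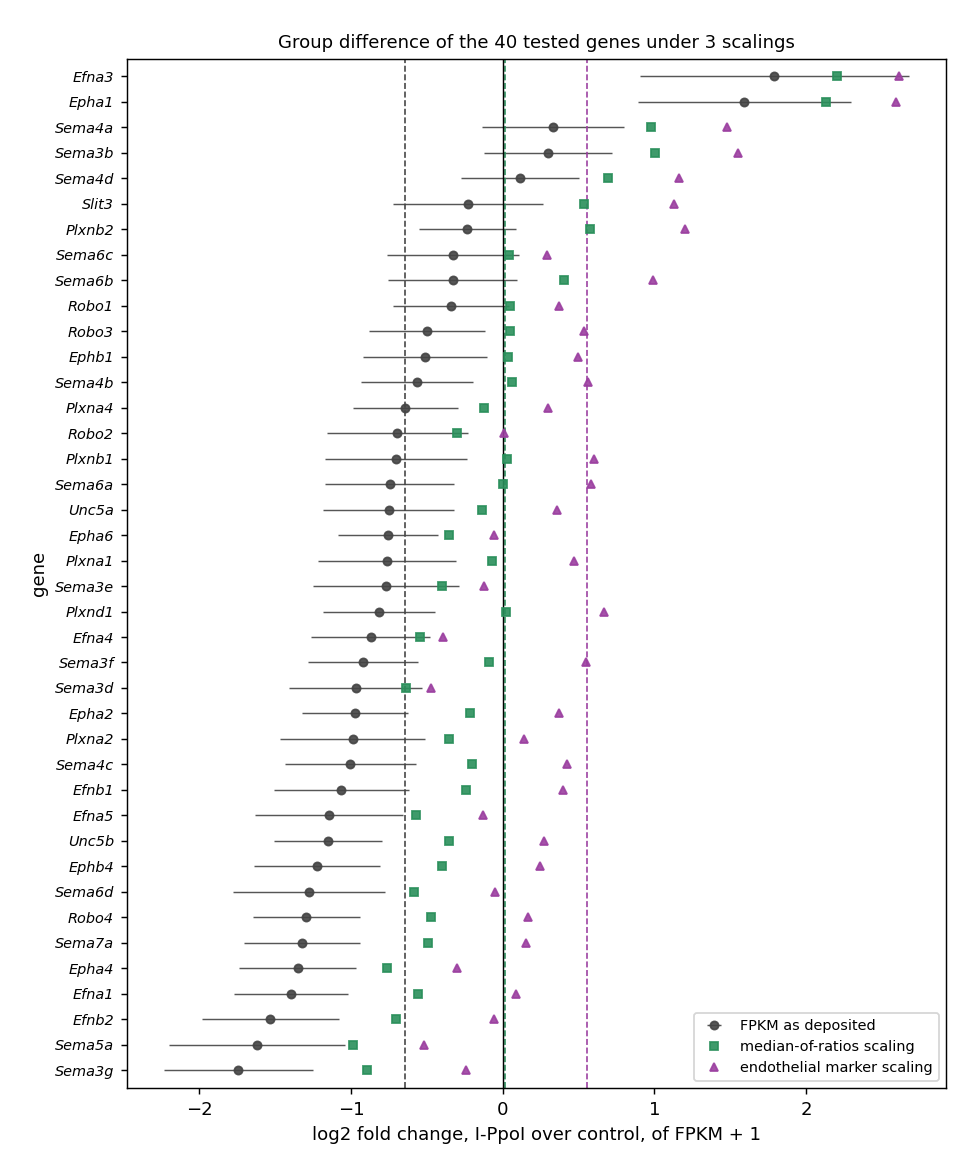
Log2 fold change of FPKM + 1, I-PpoI over control, for the 40 tested guidance genes, with bars of 1 SE for FPKM as deposited (black) and points for median-of-ratios (green) and endothelial marker scaling (purple). Dashed lines in the same colours mark the median of all tested genes at -0.65, 0.02 and 0.56. Sema3g is lowest as deposited and Sema5a under both scalings.

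A second fit kept to strand-clear genes, whose exons have no gene of the other strand nearer than 5 kb, scaled by median of ratios. It called 0 of 3654 genes (0%) and 0 of the 14 members it tested, whose smallest adjusted p was 0.487. At an unadjusted p under 0.05, Plxnb2 and Sema4a were higher and 0 members lower, against 4.27% and 5.2% of genes. Plxnb2 had a log2 fold change of 0.87 (SE 0.31, limma adjusted p = 0.487), and was the 1 member whose groups did not overlap, against 5.5% of genes higher and 9.39% lower. Sema4a had 1.19 (SE 0.45, limma adjusted p = 0.487) and Slit3 0.81 (SE 0.42, limma adjusted p = 0.487). The values were 0.68 (SE 0.42, limma adjusted p = 0.495) for Sema6b, -0.55 (SE 0.39, limma adjusted p = 0.526) for Sema3d and -0.33 (SE 0.35, limma adjusted p = 0.653) for Sema6d. Unc5b at -0.06, Sema7a at -0.19, Efnb1 at 0.06 and Epha2 at 0.06 lay close to no difference, each within its SE. Strand-clear genes held 241106 and 79921 fragments in I-PpoI mice 1 and 2, so these values too are imprecise. On unscaled FPKM the strand-clear fit called 3 of the 14, Sema6d, Sema7a and Unc5b, as lower, against 39.3% of genes lower and 0.328% higher.

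Shares within a family do not move with the scaling of a library. The Sema3g share of the class 3 sum was 87.4, 76.6 and 84.2% in the controls and 76.04, 65.6 and 73.6% in the I-PpoI mice. The Sema7a share of the membrane semaphorin sum was 48.6, 46.4 and 51.2% in the controls and 39.9, 38.5 and 39.9% in the I-PpoI mice. Both were lower in every I-PpoI library. The Plxnb2 share of the plexin sum was 15.8, 16.02 and 16.2% in the controls and 17.8, 27.3 and 23.3% in the I-PpoI mice. The Slit3 share of the Slit and Robo sum was 24.1, 8.37 and 17.9% in the controls and 29.9, 29.3 and 24.3% in the I-PpoI mice, and both were higher in every I-PpoI library. The Ephb4 share of the EphB sum overlapped, at 91.5, 95.01 and 92.2% in the controls and 91.5, 89.3 and 93.2% in the I-PpoI mice. The ratio of Sema3g to the plexin Plxnd1 was 4.25, 3.07 and 3.69 in the controls and 2.11, 1.48 and 2.25 in the I-PpoI mice, without overlap. The arterial to venous pair, Efnb2 over Ephb4, gave 1.59, 1.51 and 1.81 in the controls and 1.18, 1.14 and 1.701 in the I-PpoI mice, with I-PpoI mouse 3 inside the control range. Of 40 such sums, shares and ratios tested, 6 shares (these 4, Epha6 and Sema3b), 7 of 9 sums and the ratio of Sema3g to Plxnd1 reached the smallest p that 3 against 3 mice allow. That p is 0.1 (two-sided exact permutation test), or 0.286 after Benjamini-Hochberg adjustment over the 40, so no share passes at 0.05 in this design.

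**Figure D3:**
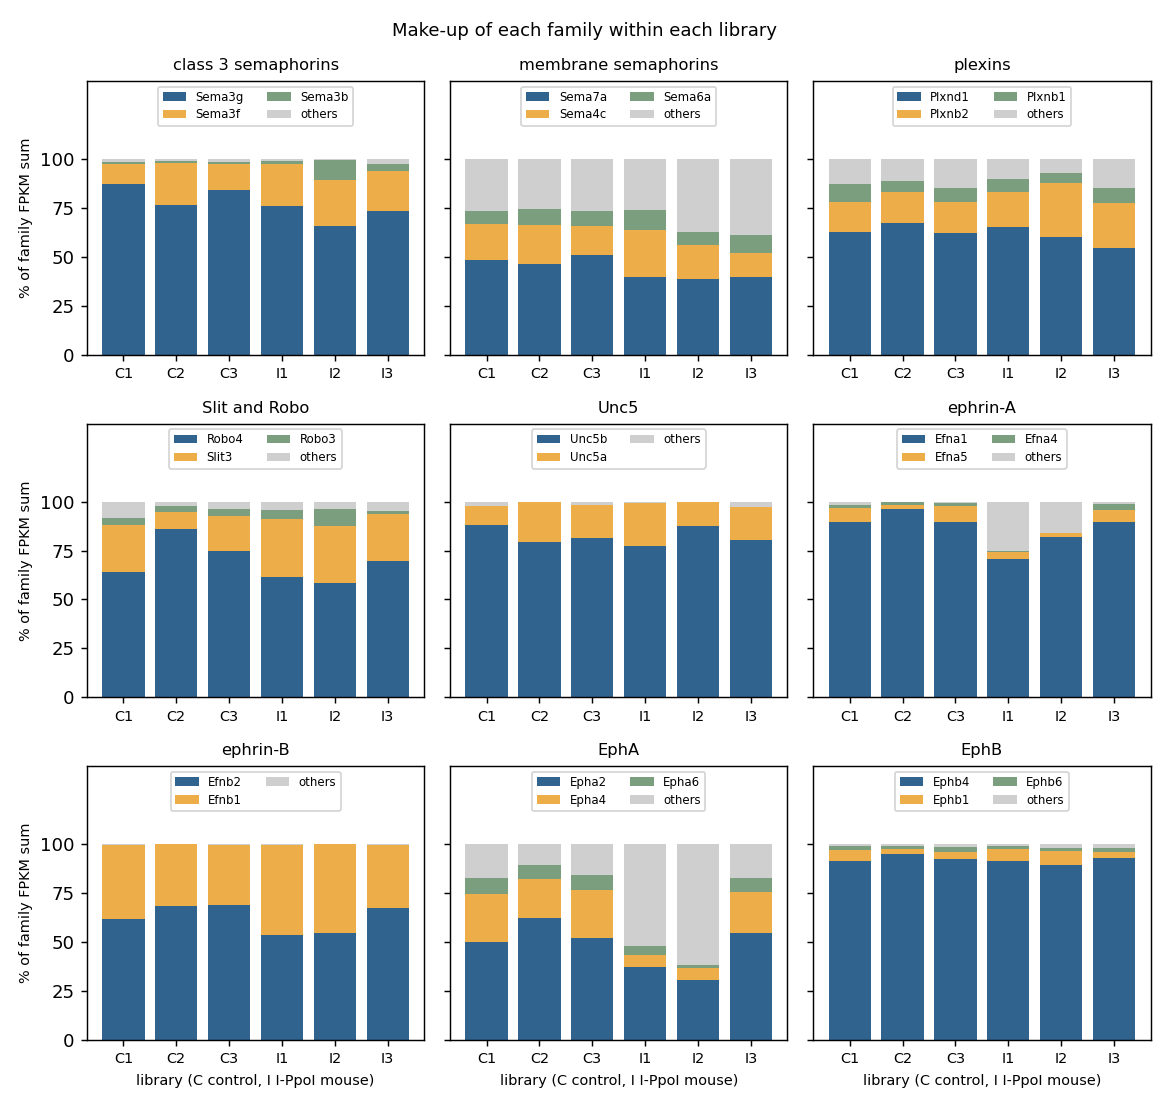
Share of each family's summed FPKM held by its leading members in each library (C1 to C3 control, I1 to I3 I-PpoI mice), bars adding to 100%. Sema3g takes 76.6 to 87.4% of class 3 semaphorins in the controls and 65.6 to 76.04% in I-PpoI mice, and the grey remainder of ephrin-A and EphA in I1 and I2 is largely Efna3 and Epha1.

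Epha1 and Efna3 stood far higher in I-PpoI mice 1 and 2 than in the other 4 libraries, and both lie opposite another gene. Epha1, an epithelial Eph receptor, was at 0.756, 0.8503 and 1.202 FPKM in the controls against 10.95, 7.596 and 0.917 FPKM in the I-PpoI group, and an exon of Zyx lies opposite. Efna3 was at 0.6102, 0.117 and 0.412 FPKM in the controls against 14.6, 4.41 and 0.247 FPKM in the I-PpoI group, with Gm15998 opposite. In both, I-PpoI mouse 3 lay within the controls, unlike mice 1 and 2. Their log2 fold changes as deposited were 1.59 (SE 0.70, limma adjusted p = 0.137) for Epha1 and 1.79 (SE 0.89, limma adjusted p = 0.155) for Efna3. Without I-PpoI mouse 3, limma called 16 of 42 members, Epha1 and Efna3 as higher and 14 as lower, against 19.9% of genes higher and 36.1% lower. Those 14 were Efna1, Efna4, Efnb2, Epha2, Epha3, Epha4, Ephb4, Robo4, Sema3d, Sema3g, Sema5a, Sema6d, Sema7a and Unc5b. Robo3, a Robo receptor that does not bind Slits in mammals, lies tail to tail with Robo4, with 553 bp between their ends. Its level was 2.52, 1.81 and 2.46 FPKM in the controls against 1.82, 1.92 and 0.471 FPKM in the I-PpoI group, and its ratio to Robo4 0.0531, 0.0342 and 0.0478 in the controls and 0.0759, 0.144 and 0.0189 in the I-PpoI mice. In I-PpoI mice 1 and 2 that ratio was above all controls and in I-PpoI mouse 3 below them. Of the 62 members, 13 overlap an exon of a gene on the other strand and 27 are strand-clear. The part of strand in these values was not tested beyond the strand-clear fit.

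In 3 low members, named after their values were seen, control mouse 1 stood apart. Robo2, a Slit receptor known from podocytes, was at 3.69, 0.695 and 0.924 FPKM in the controls against 0.404, 0.422 and 0.804 FPKM in the I-PpoI group. Epha3 was at 3.05, 0.777 and 1.303 FPKM in the controls against 0.215, 0 and 0.553 FPKM in the I-PpoI group, and Sema3e at 3.89, 0.888 and 0.674 FPKM in the controls against 0.604, 0.257 and 0.5496 FPKM in the I-PpoI group. In each, control mouse 1 was well above every other library. The podocyte marker Nphs1 (nephrin) was also highest in control mouse 1, at 56.6, 9.25 and 8.81 FPKM in the controls against 22.04, 6.49 and 8.21 FPKM in the I-PpoI group, and the 6 podocyte markers summed to 1390.2, 669 and 732 FPKM in the controls against 443, 158 and 344 FPKM in the I-PpoI group. Most of each sum was Podxl, at 940.5, 549 and 590 FPKM in the controls against 311, 109 and 265 FPKM in the I-PpoI group. Podxl and Synpo were the 2 of the 6 that were lower without overlap, beside 45.1% of all tested genes. None of the 6 podocyte markers was at 0 in all libraries. The 9 mural and fibroblast markers also summed highest in control mouse 1, at 1073, 859 and 764 FPKM in the controls against 491, 469 and 486 FPKM in the I-PpoI group. Of these markers, Ren1, Tagln, Col1a1 and Dcn were not highest there. The part of podocytes or of mural cells and fibroblasts in the Robo2, Epha3 and Sema3e values was not tested. Nor was it tested in Sema3g, which podocytes also make.

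**Figure D4:**
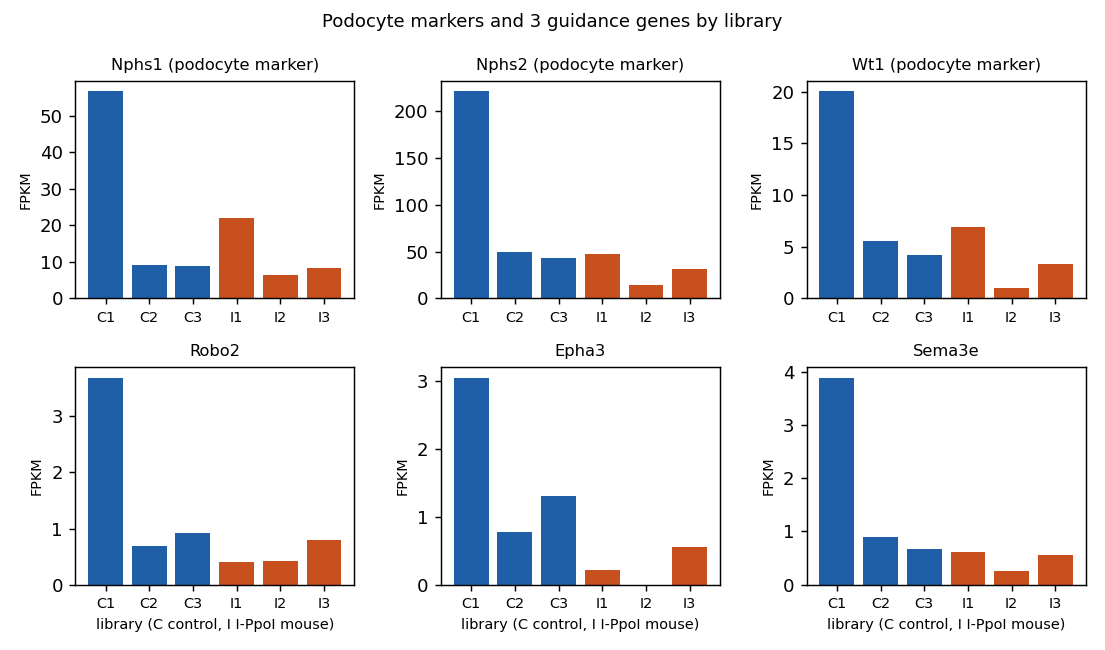
FPKM of 3 podocyte markers (upper row) and of Robo2, Epha3 and Sema3e (lower row) in each library (blue control, orange I-PpoI). Control mouse 1 is highest in all 6 panels, at 56.6 FPKM for Nphs1 and 3.69 FPKM for Robo2.

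Besides Epha1 and Efna3, the members with a log2 fold change above 0 as deposited were Sema4a, Sema4d and Sema3b (0.33, 0.12 and 0.30). The 7 macrophage markers summed to 24.01, 165 and 187 FPKM in the controls against 79.1, 207 and 200.2 FPKM in the I-PpoI group, lowest in control mouse 1. The 7 lymphocyte markers summed to 24.8, 30.7 and 41.4 FPKM in the controls against 12.5, 4.83 and 7.67 FPKM in the I-PpoI group. The lymphocyte sum was thus lower in all 3 I-PpoI libraries. The 12 proximal tubule markers summed to 784, 1519 and 932 FPKM in the controls against 319, 668 and 1668 FPKM in the I-PpoI group, highest in I-PpoI mouse 3, where Sema4a and Sema4d were also highest. Much of that sum was Kap, at 134, 755 and 165 FPKM in the controls against 11.5, 25.3 and 710 FPKM in the I-PpoI group. Aqp1, listed here also for vasa recta endothelium, added 407, 447 and 604 FPKM in the controls against 169, 151 and 288 FPKM in the I-PpoI group. The other markers lay above every control in I-PpoI mouse 3 and, except Slc5a12, in I-PpoI mouse 2. No marker of these lists was at 0 in every library. Their part in the Sema4a, Sema4d and Sema3b values was not tested. Among vessel types, the 8 arterial markers summed to 666, 578 and 526 FPKM in the controls against 378, 146 and 214 FPKM in the I-PpoI group and the 5 venous and peritubular markers to 1234, 985 and 956 FPKM in the controls against 1359.95, 1349 and 708 FPKM in the I-PpoI group. The arterial sum, like Efnb2 and Sema3g, was lower in all 3 I-PpoI libraries. The venous sum was mostly Igfbp7, which has an exon of Polr2b opposite and was at 854, 582 and 522 FPKM in the controls against 1053, 1055 and 509 FPKM in the I-PpoI group. Without Igfbp7, a choice made after its values were seen, the other 4 markers summed to 379, 403 and 434 FPKM in the controls against 307, 294 and 199 FPKM in the I-PpoI group, also lower in all 3 I-PpoI libraries.

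Other genes of these pathways were read from a list of ligands and co-receptors and a list of intracellular effectors. Of 19 ligands and co-receptors, 13 were tested and limma called 0 in either direction (0% of all genes). Their median log2 fold change was -0.89 as deposited and -0.17 with median-of-ratios scaling, and 8 did not overlap, all lower (45.1% of all tested genes were). Nrp1, the neuropilin that class 3 semaphorins and VEGF share, was at 105, 114 and 103 FPKM in the controls against 49.3, 16.8 and 56.3 FPKM in the I-PpoI group. Ntn4, a netrin of basement membranes, was at 94.1, 92.7 and 105 FPKM in the controls against 40.7, 23.3 and 46.1 FPKM in the I-PpoI group. In both, all I-PpoI values lay far under the controls. Ntng2 was at 18.02, 9.26 and 10.7 FPKM in the controls against 17.8, 6.58 and 9.22 FPKM in the I-PpoI group and Ntn1, the classical netrin, at 14.6, 6.89 and 11.3 FPKM in the controls against 6.26, 4.56 and 7.11 FPKM in the I-PpoI group, with overlap in each. Of 42 effectors 39 were tested, 0 were called and 21 did not overlap, all lower (beside the same 45.1%), with a median of -0.83 as deposited and -0.11 scaled. The effectors of highest level were small GTPases. Rras, which plexins inactivate, was at 154, 194 and 129 FPKM in the controls against 171, 69.2 and 72.7 FPKM in the I-PpoI group, with overlap. The cytoskeletal switch Rac1 was at 125, 142 and 127 FPKM in the controls against 43.7, 23.6 and 64.3 FPKM in the I-PpoI group, with an exon of Daglb opposite. Cdc42 was at 112, 150.4 and 115 FPKM in the controls against 15.3, 16.9 and 65.4 FPKM in the I-PpoI group and Rhoa at 77.7, 92.99 and 73.4 FPKM in the controls against 16.7, 11.8 and 39.6 FPKM in the I-PpoI group, the latter with exons of Gm37401 and Tcta opposite. Rac1, Cdc42 and Rhoa each lay lower in all I-PpoI libraries as deposited, with limma adjusted p = 0.132 each.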

How the data were processed

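RNA of CD31-sorted kidney endothelial cells was sequenced from both ends with 100 cycles, per the labels' protocols. The authors deposited FPKM per gene, normalized to fragments and gene length. DESeq2 1.28.13 and the builds mm10 and GRCm38 are named, per the submitters' processing notes. No aligner, counter or strand setting is given in the sources used here.

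FPKM times exon length (GENCODE mouse release M21) came to a whole number of fragments (tolerance 0.05) in 98.5 to 98.6% of values below 1000. These set the library totals of 834149 to 16954480.

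The main test was limma 3.58.1 (R 4.3.3) on log2(FPKM + 1), run on genes averaging 1 FPKM or more over the 6 libraries, with no block, Benjamini-Hochberg adjustment over all 14962 genes and 0.05 as threshold. The added 1 makes fold changes of low genes too small. A second fit used 3654 strand-clear protein-coding nuclear genes scaled by median of ratios. The script that runs limma was tested on simulated data, whose values are not used here. Family shares were tested by exact permutation. Other software was scipy 1.17.1, pandas 2.3.3, numpy 2.4.6, matplotlib 3.10.9 and python 3.11.15. Promoter windows come from RefSeq on GRCm38.p6.

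The members, the gene lists and the tests were chosen with earlier results of these data known. Genes named with values are the 3 highest of each of 9 families if at or above 1 FPKM, the 6 of smallest p in each fit, 6 known vessel genes, members called in an alternative, and the 4 highest of each pathway list. Others were named for completeness after their values were seen.

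Deviations from the group mean correlated between same-numbered libraries at 0.26, 0.20 and 0.19 over strand-clear genes (0.09, 0.06 and -0.02 over all tested genes). Differently numbered libraries were not compared in this way, so these values do not show whether the number pairs mice. The labels name no shared litter or day. Alternatives were pseudocount 0.1, no filter, a filter at 5 FPKM, other scalings, limma-voom on recovered fragments, the replicate block and libraries left out.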

Additional observations from a re-analysis of the deposited data

How the results depend on the processing

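Among 17 single-gene log2 fold changes under 236 alternatives in all, 210 kept direction and side of the threshold, 11 passed the threshold only under the alternative, 0 lost it and 15 changed sign. As deposited, leaving out 1 library gave 0 to 8470 called genes and 0 to 16 called members, the highest without I-PpoI mouse 3 (5457 genes lower and 3013 higher). Dropping I-PpoI mice 1 and 2 together, with mouse 3 alone against the controls and all of the spread taken from these, gave 19 genes and 0 members. In the strand-clear fit, leaving out 1 library gave 0 to 359 genes (34 without I-PpoI mouse 1, 359 without I-PpoI mouse 3) and 0 members, and 1 I-PpoI library (mouse 3) against the controls gave, with the same source of spread, 46 genes and 0 members. Unscaled strand-clear FPKM gave 1448 genes, 1436 of them lower (39.3%), and 3 members, Sema6d, Sema7a and Unc5b, all lower. The replicate block called 1 strand-clear gene, the Y-linked Eif2s3y, and changed no member's call in either fit. With endothelial marker scaling, values turned to 0.086 for Efna1, 0.17 for Robo4, 0.15 for Sema7a, 0.24 for Ephb4, 0.27 for Unc5b and 0.67 for Plxnd1. Plxnd1 also turned to 0.022 with median-of-ratios scaling and to 0.015 with limma-voom. Unscaled, the strand-clear values were -0.23 for Plxnb2, -0.23 for Slit3 and -0.33 for Sema6b. Without I-PpoI mice 1 and 2 they were -0.17 for Sema6b, 0.11 for Sema3d and 0.22 for Sema6d, and Sema6d ranged from -0.60 to 0.035 as single libraries were left out, the highest without I-PpoI mouse 2. The cause was not tested, except that scalings move all genes of a library together. Depth limits I-PpoI mouse 2 most, where 17 members had 0 fragments.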
